A study of Mus musculus with 2 samples.

Results

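CD4 T cells were selected from lung cells of mice bearing 4T1 tumors, a mouse mammary carcinoma line that spreads to the lungs, and saline treatment was compared with treatment by cargo-free nanoparticles (NPs) of the polymer PLG. A cell was counted as a CD4 T cell when it had at least 2 unique molecular identifiers (UMIs, each standing for 1 captured transcript molecule) over the CD3 chains Cd3d, Cd3e and Cd3g, at least 1 UMI of Cd4 and none of Cd8a or Cd8b1. It also had fewer than 4 UMIs of the B cell receptor genes Cd79a and Cd79b, none of the macrophage receptor gene Csf1r, and under 5% of its UMIs on the neutrophil genes S100a8 and S100a9. Of 16995 cells that passed the quality limits (500 to 5000 genes with a UMI, less than 7.5% of UMIs from mitochondrial genes), 303 were CD4 T cells. The saline library held 162 of them and the NP library 141.

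The saline and NP groups were both female BALB/cJ mice that received 100000 4T1 cells at 12 weeks of age, 14 days before the lungs were taken. The groups differed in what was injected into the vein. Injections began on day 1 after the tumor cells and were repeated every 3 days, 5 doses in all. Each group was 1 library from pooled lungs; the labels give 4 mice per pool and the methods another number. With 1 library per group there is no spread between mice to compare a difference with, so no test was made, and every interval below is a 95% interval for counting error only.

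CD4 T cells recognize peptides on MHC class II and direct other immune cells through cytokines and surface ligands. Naive cells circulate between blood and lymphoid tissue under the transcription factors Lef1, Tcf7 and Klf2, with Ccr7 and S1pr1 guiding entry and exit. After activation they become effector and memory cells that carry Cd44, helper subsets named by their cytokines, or regulatory T cells governed by Foxp3, which restrain the others.

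The 2 libraries held CD4 T cells of like depth. The saline cells had a median of 6384 UMIs (lowest 2979, highest 16810) and 1907.5 detected genes, and the NP cells had a median of 6444 UMIs (lowest 2005, highest 20548) and 1872 genes. Their summed UMIs were 1070256 and 924777, and ribosomal genes took 35.8% and 35.7% of them. Most members had a single Cd4 UMI (96 in saline and 80 in NP), the lowest count the rule accepts. CD3 was clear of its limit, with a lowest count of 5 UMIs in the saline and 4 in the NP members. Just outside the rule stood 170 saline and 143 NP T cells with neither a Cd4 nor a Cd8 UMI, and the rule does not say how many of these were CD4 T cells. Both Cd4 and Cd8 UMIs were found in 3 saline and 5 NP T cells. The libraries shared 21 barcodes among all kept cells and 0 among CD4 T cells.

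Genes that the rule did not use fitted the name. Levels are given as CPM, meaning UMIs per 1000000 UMIs of the pooled cells. Lef1 was at 578 CPM in the saline and 468 CPM in the NP members, against 14.0 and 9.75 CPM over all other cells of the same libraries. Lef1 marks T cells rather than CD4 T cells alone, as CD8 T cells had 471 and 332 CPM of it and T cells with neither a Cd4 nor a Cd8 UMI 480 and 260 CPM. Besides Lef1, the genes with the highest level against those other cells, among genes with at least 100 UMIs, were Trat1, A630023P12Rik, Cd40lg, Themis, Cd5, Trac, Izumo1r, Cd28 and Tcf7. Cd40lg encodes the ligand by which CD4 T cells help B cells, and it had 64.5 CPM in saline and 78.9 CPM in NP members against 0.899 and 1.32 CPM elsewhere and 3.94 and 8.19 CPM in CD8 T cells. T cells with neither a Cd4 nor a Cd8 UMI had 53.8 and 86.7 CPM of Cd40lg, so it did not set the members apart from those cells. Trac and Cd28, like Lef1, are shared by all T cells. As these genes belong to the cells that the rule picked, they are a description of the label. The NK cell gene Ncr1 had 9 UMIs in 3 saline cells and 0 in NP cells, and the γδ T cell gene Trdc had 8 UMIs in 4 saline cells and 0 in NP cells.

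Transcripts of other cell types differed between the libraries. The 15 neutrophil list genes summed to 4306 CPM in saline and 739 CPM in NP members, with S100a9 the most abundant in both, and Clec4d the one gene at 0, in the NP library. S100a8 and S100a9, which the rule itself limits, made up most of these sums, and the other 13 genes summed to 1253 and 160 CPM. The 13 endothelial list genes went the other way, at 159 CPM and 492 CPM, all 13 with a UMI in both libraries and Pecam1 the most abundant. The 2 NP cells with the most endothelial UMIs held 106 and 70 of the 455. One saline cell held 6095 of the 6116 UMIs of the erythrocyte and platelet list, mostly hemoglobin. The epithelial list was at 261 CPM and 81.1 CPM, with the surfactant gene Sftpc the most abundant, and the NK list was at 410 CPM and 154 CPM. Monocyte and macrophage genes were at 361 and 292 CPM (Ctss the most abundant, with Fcgr1 and the C1q genes at 0, and Csf1r at 0 by the rule), B cell genes at 140 and 199 CPM (Ms4a1 and Pax5 at 0), and dendritic cell genes at 101 and 122 CPM, with Bst2 holding 100 of 108 saline and 90 of 113 NP UMIs. γδ T cells and ILC2 were at 123 and 115 CPM, mostly Gata3 and with Trdc and the Tcrg-C genes at 0 in NP members, and fibroblasts at 29.9 and 66.0 CPM, mostly Gsn, while 4T1 epithelial genes had 1 and 2 UMIs. The most abundant NK list gene was Fcer1g in saline and Nkg7 in NP members, and Klra8 and Klra4 were at 0 in both, with Ncr1, Klrb1c, Klre1 and Eomes also at 0 in NP members. Their part in the gene results was not tested, and ratios without the 17 saline and 7 NP cells with the most of these transcripts are given beside the genes they bear on. Those cells were taken out after the values had been seen, and as the NK list holds Nkg7 and Gzma the step may also remove true cytotoxic CD4 T cells.

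CD4 T cells were 1.87% (1.60% to 2.18%, exact Clopper-Pearson interval) of the saline cells and 1.69% (1.43% to 1.99%) of the NP cells, a log2 ratio of −0.14 (−0.47 to 0.18). The interval spans 0, and a difference was not detectable at this number of cells. The picture depends on the cells in the denominator. Among cells under the S100a8 and S100a9 limit, which removed 5549 saline and 3143 NP cells, the shares were 5.2% (4.45% to 6.04%) and 2.72% (2.29% to 3.20%), and the log2 ratio was −0.94 (−1.26 to −0.62). Among T cells the share was 37.1% (32.5% to 41.8%) in saline and 37.5% (32.6% to 42.6%) in NP lungs. A share says nothing of the number of CD4 T cells in a lung, which was not measured.

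Gene levels were compared as log2 ratios of summed CPM, NP over saline, with counts under 3 set to 3. Of 7080 genes with at least 20 UMIs over both libraries, 8.93% were at least 1.5-fold higher in the NP library, 9.79% were at least 1.5-fold lower, 50.4% had a ratio above 0, and the median log2 ratio was 0.00. Among 2426 genes with at least 100 UMIs these shares were 1.98%, 1.77% and 53.7%, with a median of 0.02. A ratio of 1.5-fold was thus rarer among well measured genes than among sparse ones.

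The highest ratio among genes with at least 100 UMIs was that of Icos (chr1:60977927-61000320, GRCm38 as for all positions), the inducible costimulator of activated and regulatory T cells. Icos had 68 UMIs in 36 of the 162 saline cells and 138 UMIs in 52 of the 141 NP cells, or 63.5 and 149 CPM, a log2 ratio of 1.23 (0.80 to 1.67). Rgs1 (chr1:144242296-144249242), which dampens chemokine receptor signals, had 165 UMIs in saline and 285 in NP cells (log2 ratio 1.00, 0.72 to 1.28). Cd44 (chr2:102811141-102901665), the hyaluronan receptor that marks antigen-experienced cells, had 47 and 81 UMIs (1.00, 0.46 to 1.55). These genes were higher in the NP library in more cells, not through 1 cell: without the cell that held the most UMIs in each library, the log2 ratios of Icos, Rgs1 and Cd44 were 1.23, 0.87 and 1.10.

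The other 7 genes of the highest 10 were Ctla2a, Samsn1, Sh3bgrl, Mllt3, Itgb1, Plcg1 and AI662270. Samsn1, an adaptor that limits lymphocyte activation, had 64 UMIs in saline and 115 in NP cells (log2 ratio 1.06, 0.60 to 1.52), and Plcg1, a phospholipase downstream of the T cell receptor, 40 and 61 (0.82, 0.22 to 1.43). Itgb1, the β1 integrin chain, had 174 and 266 UMIs (0.82, 0.54 to 1.11), and Ctla2a, a cathepsin inhibitor, 45 and 87 (1.16, 0.63 to 1.71). Ctla2a and Itgb1 are also abundant in endothelium: 93.3% of saline and 93.7% of NP endothelial cells had a Ctla2a UMI, and 71.2% and 73.9% had one of Itgb1. With the cells that carried transcripts of other cell types left out, Ctla2a was at 1.00, Itgb1 at 1.15 and Icos at 1.51. Rgs1 was then at 1.05, Samsn1 at 1.43 and Cd44 at 1.91. Plcg1 was at 0.61 (−0.02 to 1.26), an interval that spans 0. Over all processing alternatives Cd44 ran from 0.26 to 1.91, Itgb1 from 0.30 to 1.15, Samsn1 from 0.47 to 1.43 and Plcg1 from 0.24 to 1.13.

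The 10 lowest ratios were not of genes that define T cells. Hbb-bs had 2927 UMIs in saline and 8 in NP members, and 2911 of the 2927 were in 1 saline cell, which also held nearly all UMIs of Hba-a1, Hba-a2 and Hbb-bt. The club cell secretory gene Scgb1a1 had 98 UMIs in 51 saline cells and 2 in the NP cells. Il1b, Hp, Ifitm1, Tyrobp and Fcer1g, all abundant in neutrophils or other myeloid cells, were the rest, and Il1b had 467 UMIs in saline and 35 in NP cells (log2 ratio −3.53, −4.07 to −3.03). With the mixed cells left out Il1b was at −0.84, Hp at −1.23, Ifitm1 at −1.12 and Fcer1g at 0.86, while Scgb1a1 was at −4.41.

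**Figure D1:**
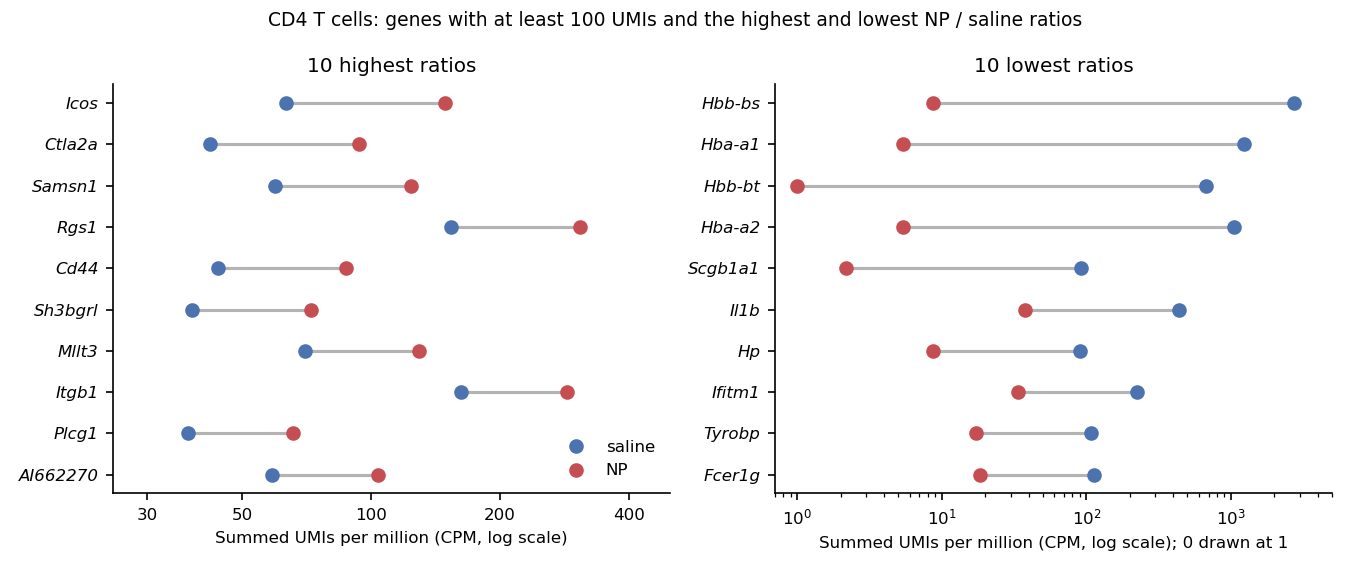
Summed CPM (log axis) in saline and NP CD4 T cells for the genes with the highest and the lowest ratios among genes with at least 100 UMIs; each point is 1 library and the line joins the pair. Icos was at 63.5 and 149 CPM, while the 2735 saline and 8.65 NP CPM of Hbb-bs came apart through 1 saline cell.

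Shares of cells with a UMI were compared after each cell was thinned to 1000 UMIs, so that depth could not set them. Icos was seen in 3.09% (1.01% to 7.06%) of saline and 11.3% (6.63% to 17.8%) of NP CD4 T cells in the first thinning, and in 5.06% and 13.3% as the mean of 10 thinnings. Without thinning, the shares were 22.2% (16.1% to 29.4%) and 36.9% (28.9% to 45.4%). Endothelial cells, which should lack Icos, had a median of 3060 and 3139 UMIs and an Icos UMI in 0 of 364 thinned saline cells, which allows a share of up to 0.824%, and in 0.156% of NP cells. The Icos shares in CD4 T cells thus stood above that background in both libraries. Rgs1 was seen in 8.02% (4.34% to 13.3%) and 17.7% (11.8% to 25.1%) of thinned CD4 T cells, with means of 12.1% and 20.2% over 10 thinnings and 36.4% and 51.1% without thinning, against 0 thinned endothelial cells in either library. The unthinned share of cells with a Cd44 UMI was 16.7% (11.3% to 23.3%) in saline and 32.6% (25% to 41.0%) in NP cells, and 7.97% and 5.63% in endothelium. After thinning, the Cd44 shares of 6.79% (3.44% to 11.8%) and 8.51% (4.48% to 14.4%) overlapped in their intervals, with means of 5.12% and 8.58% over 10 thinnings and 2.20% and 1.40% of thinned endothelial cells.

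**Figure D2:**
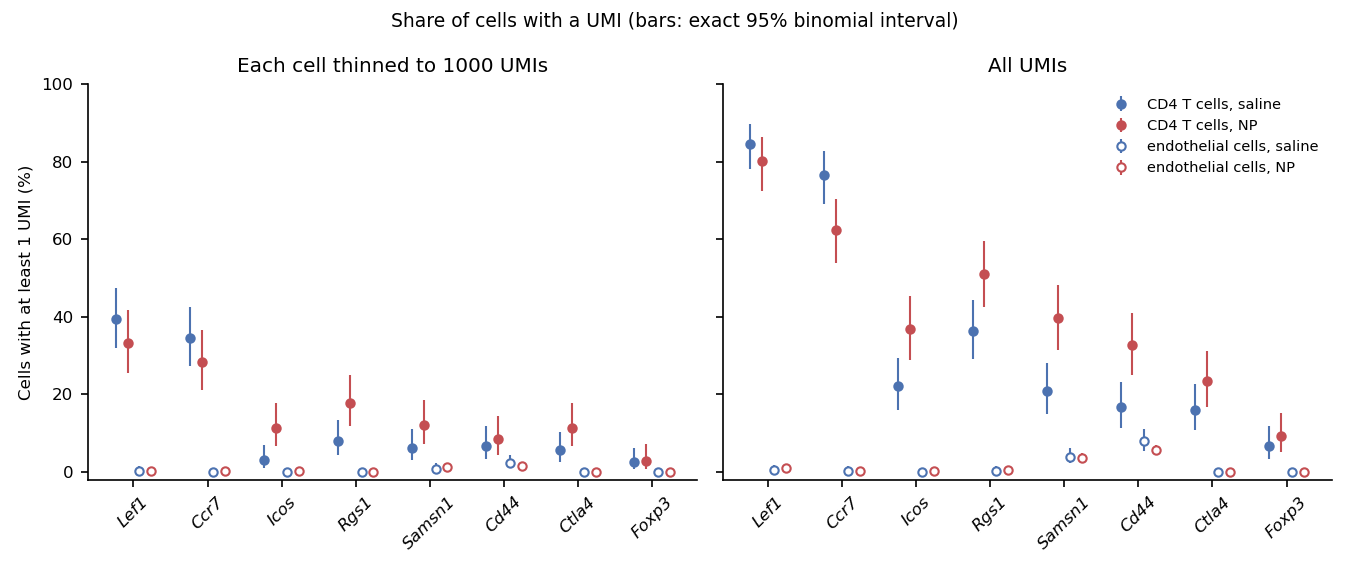
Share of cells with at least 1 UMI of 8 genes, in percent, for CD4 T cells (filled) and endothelial cells (open) of the saline and NP libraries, thinned to 1000 UMIs per cell on the left and with all UMIs on the right; bars are exact binomial intervals. Icos and Rgs1 were seen in more NP than saline CD4 T cells, Ccr7 in fewer (76.5% and 62.4% without thinning), and endothelial cells were at most at 7.97%, for Cd44.

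Several naive and recirculation genes were lower in the NP library, while the list as a whole stayed near the median of all genes. Of 24 measured genes on this list, 8 had a ratio above 0 against 50.4% of all genes, and 1 was at least 1.5-fold higher and 2 at least 1.5-fold lower, which is no more than the 8.93% and 9.79% of all genes. The median was −0.08 (order-statistic interval −0.30 to 0.07), against 0.00 over all genes. The summed list went from 8971 to 8096 CPM, a log2 ratio of −0.15 (−0.19 to −0.10). Klf2 (chr8:72319033-72321656), the factor that turns on egress and homing genes, had 1963 saline and 1352 NP UMIs (−0.33, −0.43 to −0.23), and its relative Klf3 had 291 and 156 (−0.69, −0.98 to −0.40). Ccr7, the lymph node homing receptor, had 459 and 296 UMIs (−0.42, −0.64 to −0.21). Over all processing alternatives the Ccr7 ratio ran from −0.47 to −0.0008. Lef1 had 619 and 433 UMIs (−0.30, −0.49 to −0.13), and Dapl1, a marker of quiescent naive T cells, had 293 and 168 (−0.59, −0.87 to −0.31).

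The homing and survival genes of the same program were not uniformly lower. Tcf7 was at 0.08 (−0.13 to 0.29) and the interleukin-7 receptor gene Il7r at −0.15 (−0.31 to 0.01), with intervals that span 0. S1pr1, the receptor for exit from lymphoid tissue, was higher in the NP library, with 413 saline and 437 NP UMIs (0.29, 0.09 to 0.49). Ly6c1, at 12 and 49 UMIs (2.24, 1.31 to 3.29), is on the endothelial list as well. With the mixed cells left out, Lef1, Ccr7, Klf3 and Dapl1 were at −0.40, −0.46, −0.73 and −0.62. In the 66 saline and 61 NP cells with at least 2 Cd4 UMIs the naive median was 0.10.

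All 16 measured genes of the regulatory list had a ratio above 0, against 50.4% of all genes. Of these, 7 were at least 1.5-fold higher and none lower, against 8.93% and 9.79% of all genes. The median was 0.47, and the summed list went from 759 to 1074 CPM (log2 ratio 0.50, 0.37 to 0.64). Icos held 68 of the 812 saline and 138 of the 993 NP UMIs of the list, and most other members had few UMIs. With at least 2 Cd4 UMIs required, 5 of 8 measured genes were above 0, where over all CD4 T cells 50.4% of all genes were. The median was then 0.18 (order-statistic interval −0.83 to 1.57). Foxp3 (chrX:7573644-7595245), the gene that defines regulatory T cells, had 29 saline and 31 NP UMIs (0.31, −0.47 to 1.09). Ikzf2, a factor that stabilizes them, had 100 and 93 (0.11, −0.32 to 0.53), and the TNF receptor gene Tnfrsf18 had 136 and 121 (0.04, −0.32 to 0.41). These 3 intervals span 0.

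Other members of the regulatory list had higher ratios. Tnfrsf4, which encodes the costimulator OX40, had 53 and 72 UMIs (0.65, 0.12 to 1.19), Il2ra, the high-affinity interleukin-2 receptor chain, 11 and 21 (1.14, 0.03 to 2.34), and Capg, an actin capping gene, 105 and 132 (0.54, 0.16 to 0.92). In the 82 saline and 53 NP cells with no UMI of 8 genes of other lineages, Tnfrsf4 was at −0.31 (−1.58 to 0.87). Ctla4, the inhibitory partner of Cd28, had 108 and 118 UMIs (0.34, −0.05 to 0.73). Itgae, the integrin chain of tissue-resident cells, had 11 and 23 UMIs in 7 cells of each library (1.27, 0.18 to 2.46). The other 7 genes of the 23 on the list, among them Il10, Tigit and Tnfrsf9, had fewer than 20 UMIs.

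The share of CD4 T cells with a Foxp3 UMI was 6.79% (3.44% to 11.8%), 11 cells, in saline and 9.22% (5.00% to 15.3%), 13 cells, in NP lungs. After thinning the shares were 2.47% (0.677% to 6.20%) and 2.84% (0.778% to 7.10%), or 2.22% and 3.97% as means of 10 thinnings, against 0 and 0.0779% of endothelial cells. A wider gate, at least 2 UMIs over Foxp3, Il2ra, Ikzf2 and Ctla4, chosen after the values were seen, took 15.4% (10.2% to 21.9%) of saline and 17% (11.2% to 24.3%) of NP cells. In each of these measures, with all CD4 T cells, the intervals of the 2 libraries overlapped widely. With the mixed cells left out, 6 of 145 saline and 11 of 134 NP cells had a Foxp3 UMI without thinning, a log2 ratio of 0.99 (−0.41 to 2.38) against 0.44 (−0.67 to 1.55) with all cells, and both intervals span 0. The thinned share moved with the draw as well as with the cells: its log2 ratio was 0.20 in the first thinning and 0.84 as the mean of 10 with all cells, and 1.70 and 1.33 with the mixed cells left out. In the summed levels without the mixed cells, Foxp3 was at 1.09 (0.08 to 2.18), Ctla4 at 1.24 (0.73 to 1.78), Tnfrsf4 at 1.03 (0.41 to 1.67) and the median of the regulatory list at 0.85. The gate did not hold most T cells with a Foxp3 UMI. Among T cells with neither a Cd4 nor a Cd8 UMI, 20 of 170 saline and 18 of 143 NP cells had one. Foxp3 was at 39.3 CPM in saline and 36.2 CPM in NP cells there, against 27.1 and 33.5 CPM in the gate. The shares above are thus those of the gate, not of all regulatory T cells.

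Most of the difference in Icos lay outside the Foxp3-positive cells. In the 11 saline and 13 NP cells with a Foxp3 UMI, Icos had 18 UMIs in each library (log2 ratio −0.15, −1.17 to 0.88), and in the 151 and 128 cells without one it had 50 and 120 UMIs (1.51, 1.02 to 2.01). Outside the wider regulatory gate Icos had 34 and 80 UMIs (1.44, 0.84 to 2.06), and inside it 34 and 58 (1.02, 0.38 to 1.67). Cd44 was at 0.98 (0.31 to 1.67), Itgb1 at 1.18 (0.82 to 1.55) and Samsn1 at 1.46 (0.84 to 2.11) outside the gate. Rgs1 was higher in both subsets by Foxp3, with 24 and 70 UMIs (1.40, 0.71 to 2.13) in cells with a Foxp3 UMI and 141 and 215 in the others (0.85, 0.54 to 1.17). A single NP cell held 41 of the 285 NP UMIs of Rgs1, and the subset ratios were not recomputed without that cell. A cell without a Foxp3 UMI may still be a regulatory T cell at this depth. The 11 saline cells with a Foxp3 UMI also carried far more RNA of other cell types than the 13 NP cells: the neutrophil list without S100a8 and S100a9 was at 6816 and 168 CPM, the NK list at 1119 and 236 CPM, and the monocyte and macrophage list at 1244 and 427 CPM. Neither the difference between the subsets nor the part of those transcripts in it was tested.

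**Figure D3:**
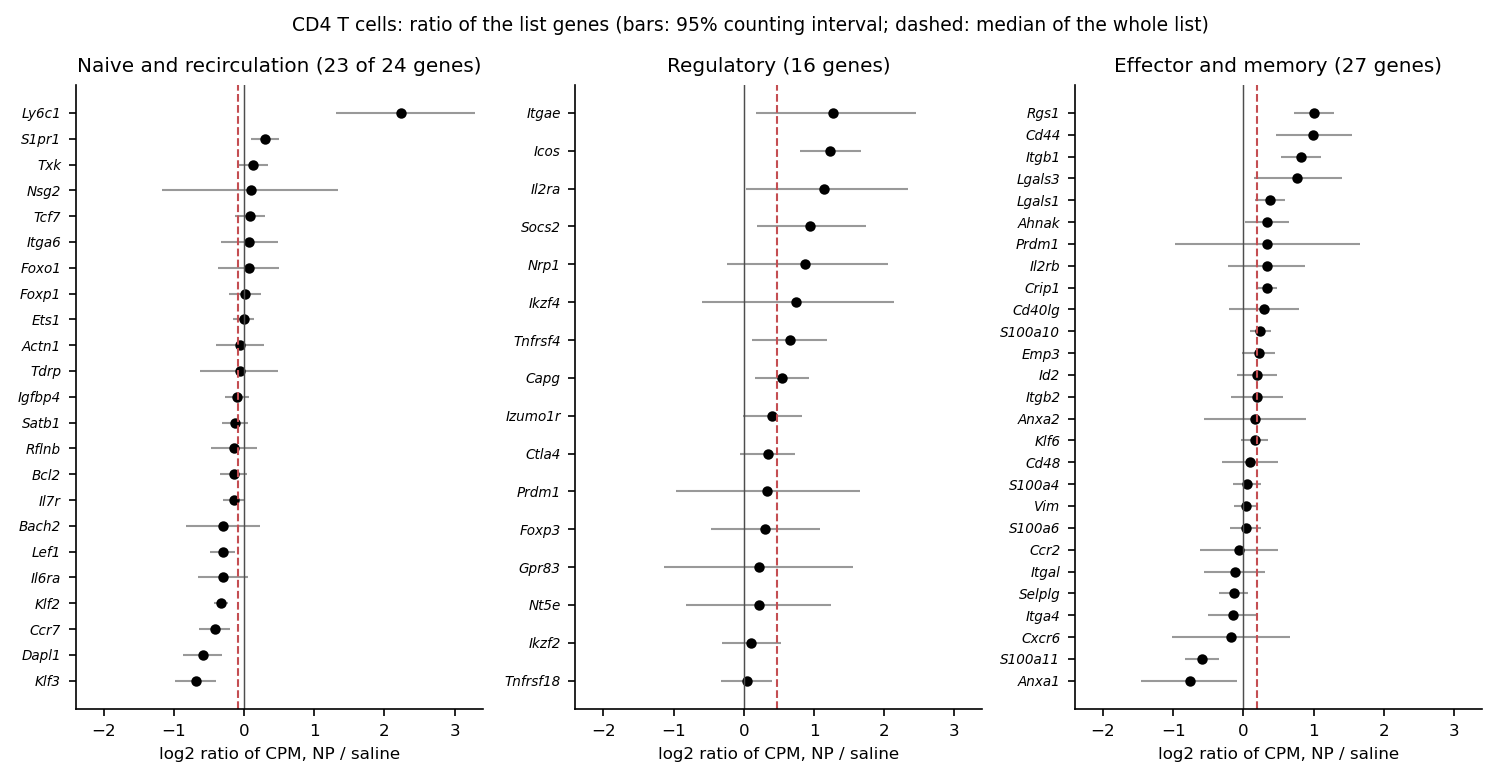
Log2 ratio of CPM, NP over saline, for measured genes of the naive (23 of 24 genes), regulatory (16) and effector (27) lists in CD4 T cells; bars are 95% counting intervals and the dashed line is the median of the whole list. Regulatory genes lie at or above 0, naive genes mostly just below it, and effector genes mostly above it with S100a11 and Anxa1 as the lowest.

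Effector and memory genes leaned toward the NP library. Of 27 measured genes, 20 had a ratio above 0, 4 were at least 1.5-fold higher (Rgs1, Cd44, Itgb1 and the galectin gene Lgals3, the last at −0.59 without the S100a8 and S100a9 limit) and 2 lower (S100a11 and Anxa1), and the median was 0.19. Over all genes 50.4% were above 0, 8.93% were that much higher and 9.79% that much lower. The summed list went from 5981 to 6788 CPM (log2 ratio 0.18, 0.13 to 0.23). Lgals1, the galectin of activated T cells, had 345 and 388 UMIs (0.38, 0.17 to 0.59), and Crip1 had 712 and 774 (0.33, 0.18 to 0.48). S100a4 and S100a6, which are abundant in memory cells, were at 0.05 (−0.15 to 0.25) and 0.03 (−0.19 to 0.26). S100a11 had 384 saline and 221 NP UMIs (−0.59, −0.83 to −0.34) and Anxa1 57 and 29 (−0.76, −1.46 to −0.09), and both are abundant in neutrophils. With the mixed cells left out, S100a11 was at −0.03, Anxa1 at 0.62, Lgals1 at 1.08, Crip1 at 0.62 and the list median at 0.55.

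The 2 subsets are given side by side on this list. Outside the regulatory gate, 22 of 26 measured effector genes had a ratio above 0, against 51.5% of all genes measured there, and the summed list had a log2 ratio of 0.41 (0.35 to 0.47). Inside the gate 7 of 24 did, against 48.5% of all genes, and the sum was at −0.21 (−0.29 to −0.12). In the same gated cells the neutrophil list, without S100a8 and S100a9, was at 3770 CPM in saline and 220 CPM in NP members. Neither the difference between the subsets nor the part of those transcripts in it was tested.

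Cell by cell, more NP than saline cells had more effector than naive UMIs. Averaged over 10 thinnings to 1000 UMIs, 18.1% of saline cells (13% to 20.4% over the thinnings) and 29.1% of NP cells (27.7% to 33.3%) had an effector sum above their naive sum, a log2 ratio of 0.69 (0.09 to 1.29). Without thinning the shares were 16.7% and 28.4%. This measure was added after the values had been seen, and it is a range along a score and not a cell type: in the first thinning the sums of 17 saline and 14 NP cells differed by at most 1 UMI. With at least 2 Cd4 UMIs required, the shares were 25.3% and 27.2% in 66 saline and 61 NP cells, and the log2 ratio was 0.10 (−0.74 to 0.95). The interval also spanned 0 with a mitochondrial limit of 5% (0.23, −0.42 to 0.87), without the S100a8 and S100a9 limit (0.38, −0.16 to 0.93), with no UMI of other lineage genes (0.55, −0.48 to 1.58) and with doublets of the shared threshold removed (0.56, −0.04 to 1.15), so the difference in this share was not firm.

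Many genes of the helper subsets were sparse. The type 1 helper list, with the factor Tbx21 and interferon-γ as its hallmarks, had 13 measured genes. Of these, 6 were above 0, against 50.4% of all genes. The list median was −0.17, and its sum was at 0.08 (−0.08 to 0.24). Tbx21 had fewer than 20 UMIs. Ifng had 16 saline and 11 NP UMIs (−0.33, −1.58 to 0.87), and the chemokine receptor gene Cxcr3 had 35 in each (0.21, −0.51 to 0.93). The even sum joined unlike values in the 2 subsets. Outside the regulatory gate the sum was at 345 CPM in saline and 677 CPM in NP members (0.97, 0.76 to 1.18), and inside it at 1980 and 647 CPM (−1.61, −1.94 to −1.30). Much of both values was the chemokine gene Ccl5, which is on this list and was held by few cells: without it the sums were at 0.46 (0.24 to 0.69) outside and −0.81 (−1.16 to −0.46) inside the gate. In the gated cells the NK list was at 1467 CPM in saline and 207 CPM in NP members. Neither its part nor the difference between the subsets was tested. Il2, the T cell growth factor made early after activation, stood apart from the list at 7 UMIs in 7 saline cells and 28 UMIs in 15 NP cells (2.21, 0.98 to 3.65), and 26 of the 28 were in cells outside the regulatory gate.

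The type 2 list had no firm direction: its 7 measured genes had a median of −0.21, which was 0.42 with the mixed cells left out, and its sum was at 0.08 (−0.13 to 0.29). Its factor Gata3 had 89 and 84 UMIs (0.13, −0.32 to 0.57) and Maf, shared with follicular and regulatory cells, had 96 and 131 (0.66, 0.27 to 1.05), while Il4, Il5 and Il13 had fewer than 20 UMIs. The cytokine genes Il17a, Il17f and Il22, which define type 17 cells, were also under 20 UMIs. The 5 measured genes of the type 17 list therefore do not include these cytokines. Among them Tmem176b had 10 and 38 UMIs (2.14, 1.10 to 3.31), Ahr, the aryl hydrocarbon receptor, 10 and 23 (1.41, 0.29 to 2.65) and Rora 74 and 56 (−0.19, −0.72 to 0.33). With the mixed cells left out Tmem176b was at 1.24 (0.04 to 2.56) and the type 17 median at 0.70, against 1.15 with all cells. Of 6 measured follicular helper genes the inhibitory receptor gene Btla was the highest, at 16 UMIs in 16 saline and 31 UMIs in 29 NP cells (1.16, 0.25 to 2.13), and Bcl6 the lowest, at 18 and 5 (−1.64, −3.42 to −0.15).

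Components of T cell receptor signaling were close to even, with a median of 0.14 over 29 measured genes and a sum at 0.05 (0.01 to 0.10). Of these genes 17 were above 0, against 50.4% of all genes. The adaptor gene Lat had 371 and 436 UMIs (0.44, 0.24 to 0.65), the receptor chain Trac 539 and 574 (0.30, 0.13 to 0.47) and the costimulator Cd28 276 and 297 (0.32, 0.08 to 0.56). Cd27, a costimulator that is lost on differentiated effector cells, had 233 and 146 UMIs (−0.46, −0.77 to −0.16). The kinase Lck was at 0.25 (0.02 to 0.47), and Trbc2, the constant region of the β chain, at −0.02 (−0.12 to 0.07).

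Immediate response genes were split. The activation list had 9 of 18 measured genes above 0, against 50.4% of all genes, with a median of 0.08 and a sum at 0.01 (−0.08 to 0.10). Dusp2, a phosphatase induced by receptor signals, had 92 and 132 UMIs (0.73, 0.34 to 1.13), and Tnfaip3, a brake on NF-κB, 315 and 327 (0.26, 0.04 to 0.49). Nr4a1 had 91 and 49 UMIs (−0.68, −1.21 to −0.17) and Myc 44 and 17 (−1.16, −2.06 to −0.32). With the mixed cells left out Nr4a1 was at −0.46 (−1.03 to 0.09) and Myc at −1.37 (−2.29 to −0.51). The genes that tissue dissociation induces were in part lower as well, with Fos at 414 and 180 UMIs (−0.99, −1.25 to −0.73), Egr1 at 44 and 15 (−1.34, −2.29 to −0.47) and Zfp36 at 291 and 167 (−0.59, −0.87 to −0.31), while the heat shock gene Hspa8 was at 0.19 (0.07 to 0.31). That list had 8 of 20 genes above 0, against 50.4% of all genes, and a median of −0.07. On it 3 genes were at least 1.5-fold lower and none at least 1.5-fold higher, against 9.79% and 8.93% of all genes. The part of the dissociation list in the activation genes was not tested.

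Receptors for cytokines and chemokines showed no common direction. The cytokine receptor list had 9 of 19 measured genes above 0 and a median of −0.03. The chemokine and egress receptor list had 7 of 11 above 0 and a median of 0.08. Over all genes 50.4% were above 0. Ifngr1 and Ifngr2, the 2 chains of the interferon-γ receptor, were at −0.10 (−0.36 to 0.16) and 0.05 (−0.47 to 0.57). Inhibitory receptors had 6 of 8 measured genes above 0, against 50.4% of all genes. Their median was 0.25 and their sum was at 0.23 (0.06 to 0.40). Pdcd1, which encodes PD-1, had 14 and 13 UMIs, and Lag3, Havcr2 and Tigit had fewer than 20.

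Genes induced by interferon-γ were higher in the NP library. Interferon-γ acts through promoter sites of the form TTCNNNGAA, and through Irf1, which binds repeats of GAAA. The targets encode guanylate binding proteins and immunity-related GTPases, peptide transport and proteasome subunits for MHC class I, and the feedback inhibitor Socs1. Of 40 measured genes, 34 had a ratio above 0, 12 were at least 1.5-fold higher and 1 lower, against the 50.4%, 8.93% and 9.79% of all genes given above. The median was 0.33, and the sum, ruled by abundant MHC class I genes, went from 11587 to 13062 CPM (0.17, 0.14 to 0.21). With at least 2 Cd4 UMIs required the median was 0.20, and with no UMI of other lineage genes it was 0.16.

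The promoters of the 2 highest genes of this list with at least 100 UMIs and a match to either form show how such sites lie near the start. They are the 250 bases before the RefSeq start on GRCm38.p6, 5′ to 3′ along the gene's strand, with matches to GAAANNGAAA (either strand) or TTCNNNGAA (the same on both strands) in capitals. The Socs1 window is chr16:10785537-10785786 on the minus strand and the Igtp window chr11:58199306-58199555 on the plus strand.
Socs1: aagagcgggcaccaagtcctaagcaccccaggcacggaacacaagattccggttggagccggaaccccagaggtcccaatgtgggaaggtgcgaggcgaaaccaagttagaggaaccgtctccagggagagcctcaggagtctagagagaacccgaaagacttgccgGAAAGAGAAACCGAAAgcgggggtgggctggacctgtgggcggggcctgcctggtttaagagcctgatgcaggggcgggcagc
Igtp: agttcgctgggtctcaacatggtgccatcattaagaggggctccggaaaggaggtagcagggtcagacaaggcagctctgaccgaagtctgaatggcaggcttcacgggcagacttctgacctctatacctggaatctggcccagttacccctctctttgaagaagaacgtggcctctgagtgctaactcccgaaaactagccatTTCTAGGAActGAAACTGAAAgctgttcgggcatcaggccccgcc

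In the Socs1 window 2 overlapping GAAANNGAAA matches lie 83 to 68 bases before the start. In the Igtp window a TTCNNNGAA match, 45 to 37 bases before the start, is followed by a GAAANNGAAA match at 34 to 25 bases. The windows of Nmi and Tap1, which had ratios between those of Socs1 and Igtp, held neither form. RefSeq windows were matched for 29 of the 40 genes, with 34 starts. GAAANNGAAA was in 35.3% of these starts against 2.98% of the 32851 starts of all genes, and TTCNNNGAA in 29.4% against 7.02%. The list was chosen as interferon targets, so this describes the list, and a match is not a measured binding site.

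Socs1 (chr16:10782240-10785536) had 105 UMIs in saline and 156 in NP cells (log2 ratio 0.78, 0.42 to 1.15), seen in 61 and 71 cells. Irf1 had 173 and 196 UMIs (0.39, 0.09 to 0.69), and Igtp, an immunity-related GTPase, 106 and 124 (0.44, 0.05 to 0.82). The peptide transporter subunit Tap1 had 92 and 110 UMIs (0.47, 0.06 to 0.88), and the immunoproteasome subunits Psmb8 and Psmb9 were at 0.30 (0.13 to 0.47) and 0.31 (0.06 to 0.56). The ratios of Irf1, Igtp and these presentation genes all lay between 0.30 and 0.47. Larger ratios were found in sparser genes: Iigp1 had 16 UMIs in 13 saline cells and 69 in 31 NP cells (2.32, 1.52 to 3.20), Gbp2 35 and 62 (1.04, 0.42 to 1.68) and Gbp6 14 and 27 (1.16, 0.18 to 2.20). H2-D1 and B2m, the most abundant members, were at 0.08 (0.02 to 0.14) and 0.15 (0.06 to 0.24), and Ifi47, another GTPase of the same family, was at −0.24 (−0.58 to 0.10). Ly6a, which endothelium also carries, had 18 and 57 UMIs (1.87, 1.09 to 2.73) and was at 0.26 with the mixed cells left out, where Iigp1 was at 2.09, Gbp2 at 0.87, Socs1 at 0.89 and the list median at 0.35.

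Genes that respond mainly to type I interferon had ratios mostly just below 0. Of 34 measured genes on the interferon-α list, 9 had a ratio above 0 against 50.4% of all genes, and the median was −0.12. Large ratios were no more common than elsewhere, with 2 genes at least 1.5-fold higher and 3 lower against 8.93% and 9.79% of all genes. Isg15, a ubiquitin-like modifier, had 41 and 17 UMIs (−1.06, −1.97 to −0.21), the factor Irf7 48 and 24 (−0.79, −1.56 to −0.05), and Slfn2, which keeps T cells quiescent, 529 and 384 (−0.25, −0.44 to −0.06). Without the S100a8 and S100a9 limit the list median was 0.03 and Isg15 was at 0.10. Zbp1, a nucleic acid sensor, was the highest at 56 and 81 UMIs (0.74, 0.23 to 1.26). The most abundant members, Ms4a4b and Ifi27l2a, were at −0.03 (−0.14 to 0.08) and −0.05 (−0.19 to 0.08). The classical targets Ifit1, Ifit3, Rsad2, Usp18 and Oas2 had fewer than 20 UMIs.

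**Figure D4:**
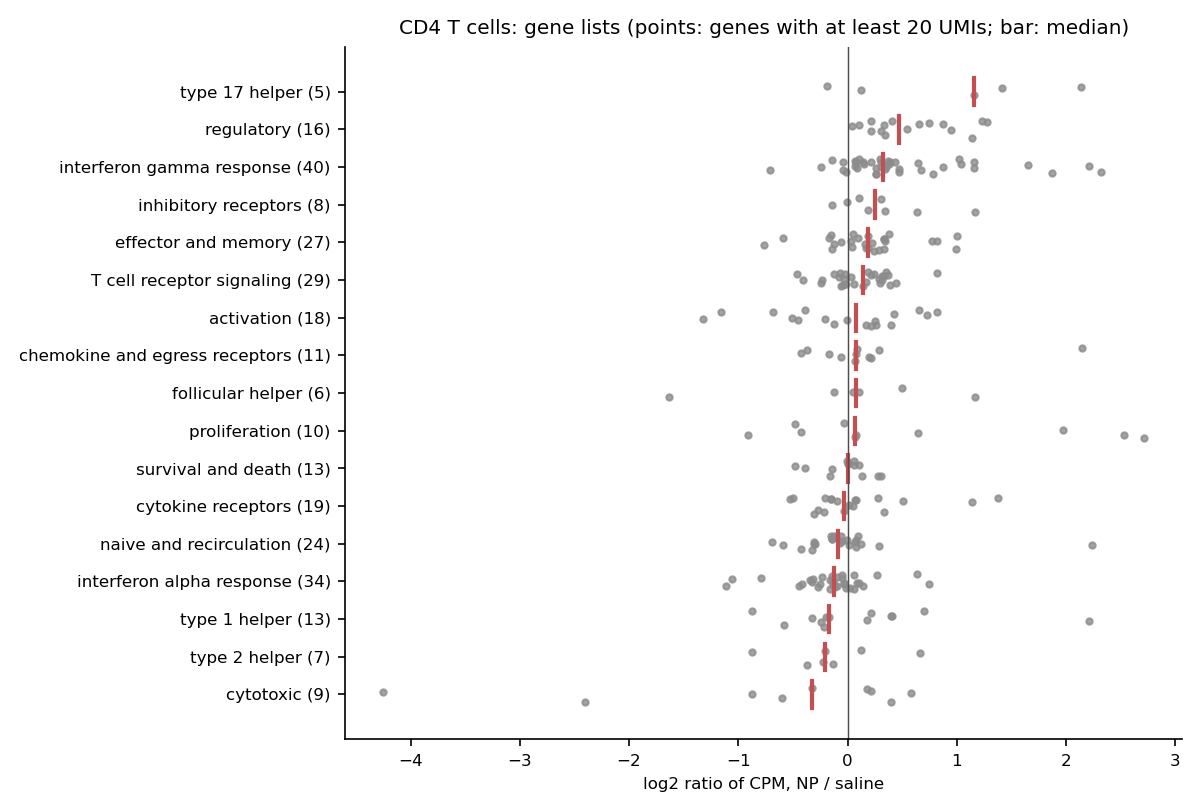
Log2 ratio of CPM, NP over saline, of every gene with at least 20 UMIs on 17 gene lists in CD4 T cells; the bar is the list median and the number of genes is in parentheses. The interferon-γ list (median 0.33) lies above 0 and the interferon-α list (median −0.12) below it, and the type 17 median of 1.15 rests on 5 genes.

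Cytotoxic genes, carried by few CD4 T cells, were scattered. The list had 9 measured genes, 4 of them above 0, against 50.4% of all genes. None was at least 1.5-fold higher and 4 were at least 1.5-fold lower, against 8.93% and 9.79% of all genes. The list median was −0.33 and the sum was at −0.24 (−0.43 to −0.04). Gzma, the granule protease granzyme A, had 66 UMIs in 3 saline cells and 1 UMI in the NP cells, and 65 of the 66 were in regulatory-gated saline cells. Ccl4 had 49 UMIs in 4 saline cells and 8 UMIs in 8 NP cells (−2.4, −3.69 to −1.31), but with the mixed cells left out no saline UMI remained and the direction turned, to 1.51 against the floor of 3 UMIs, with a counting interval from 0.86 upward. With no UMI of other lineage genes it was at 0.94 (−1.28 to 3.27). The chemokine gene Ccl5 had 171 and 167 UMIs (0.18, −0.14 to 0.49), but 152 of the 171 were in 1 saline cell inside the regulatory gate, and outside the gate it had 11 saline and 167 NP UMIs, the latter in 9 cells. The perforin gene Prf1 was at −0.60 (−1.47 to 0.24), Nkg7 at 0.39 (−0.13 to 0.92; 1.37 with the mixed cells left out) and the protease gene Ctsw at 0.58 (−0.01 to 1.19). One saline cell held 153 UMIs of the NK list. Outside the regulatory gate the cytotoxic sum was at 162 CPM in saline and 436 CPM in NP members (1.43, 1.14 to 1.72), and without Ccl5 at 150 and 218 CPM (0.54, 0.20 to 0.88). With the mixed cells left out of all CD4 T cells the list median was 0.17.

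Proliferation genes differed through a few cells. The list had 6 of 10 measured genes above 0, 4 at least 1.5-fold higher and 1 lower, against 50.4%, 8.93% and 9.79% of all genes, with a median of 0.07 and a sum at 0.18 (0.04 to 0.31). In cells with a Foxp3 UMI the sum was at 0.76 (0.47 to 1.06), and in the others at −0.08 (−0.23 to 0.08). Mki67, a marker of cycling cells, had 6 UMIs in 4 saline cells and 34 UMIs in 3 NP cells, 33 of the 34 in cells with a Foxp3 UMI, and Ube2c had 7 and 35 UMIs in 2 cells of each library. Pcna, a replication factor, had 110 and 68 UMIs (−0.48, −0.94 to −0.03). The high ratios of Mki67 and Ube2c rested on 2 to 4 cells of a library. The survival and death list had 8 of 13 above 0, a median of 0.00 and a sum at −0.11 (−0.19 to −0.02), with the antiapoptotic gene Mcl1 at −0.01 (−0.18 to 0.16), Bcl2 at −0.15 (−0.34 to 0.04) and the kinase Pim1 at −0.39 (−0.57 to −0.22).

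The same lists in other lymphocytes of the same 2 libraries are given side by side, since each comparison had 1 library per group. In 102 saline and 87 NP CD8 T cells the naive sum was at −0.32 (−0.37 to −0.26), and in CD4 T cells at −0.15 (−0.19 to −0.10). The effector sum was at 0.89 (0.84 to 0.95) in CD8 and 0.18 (0.13 to 0.23) in CD4 T cells, and the type 1 sum at 0.70 (0.62 to 0.78) and 0.08 (−0.08 to 0.24). The regulatory sum had the other order, at 0.13 (−0.10 to 0.36) in CD8 and 0.50 (0.37 to 0.64) in CD4 T cells. In T cells with neither a Cd4 nor a Cd8 UMI the regulatory sum was at 0.21 (0.09 to 0.32) and the median at 0.17. Of 20 regulatory genes measured there, 11 were above 0, against 51.9% of all genes in that class. The neutrophil list without S100a8 and S100a9 had a log2 ratio of 1.15 in CD8 and −2.97 in CD4 T cells, the monocyte and macrophage list 1.81 and −0.30, and the NK list 1.20 and −1.42. The dissociation list was at 0.43 in CD8, with 18 of 20 genes above 0 against 51.0% of all genes in CD8 T cells, and at −0.06 in CD4 T cells. The part of these transcripts in the gaps was not tested. The interferon-γ median was 0.33 in CD4, 0.13 in CD8 and 0.36 in B cells (450 saline and 604 NP), so this list was above 0 in each. In the B cells the endothelial list was at 262 CPM in saline and 604 CPM in NP members, and the epithelial list at 1823 and 117 CPM. The dissociation sum in B cells was at 0.18 (0.16 to 0.21), and the part of these transcripts was not tested. Icos was at 0.67 (−0.00 to 1.36) in CD8 T cells, with 32 and 49 UMIs. In T cells with neither a Cd4 nor a Cd8 UMI it was at 1.29 (0.88 to 1.70), with 73 and 168. There the NK list was at 560 CPM in saline and 2847 CPM in NP members (2.34, 2.21 to 2.48), and its part was not tested.

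**Figure D5:**
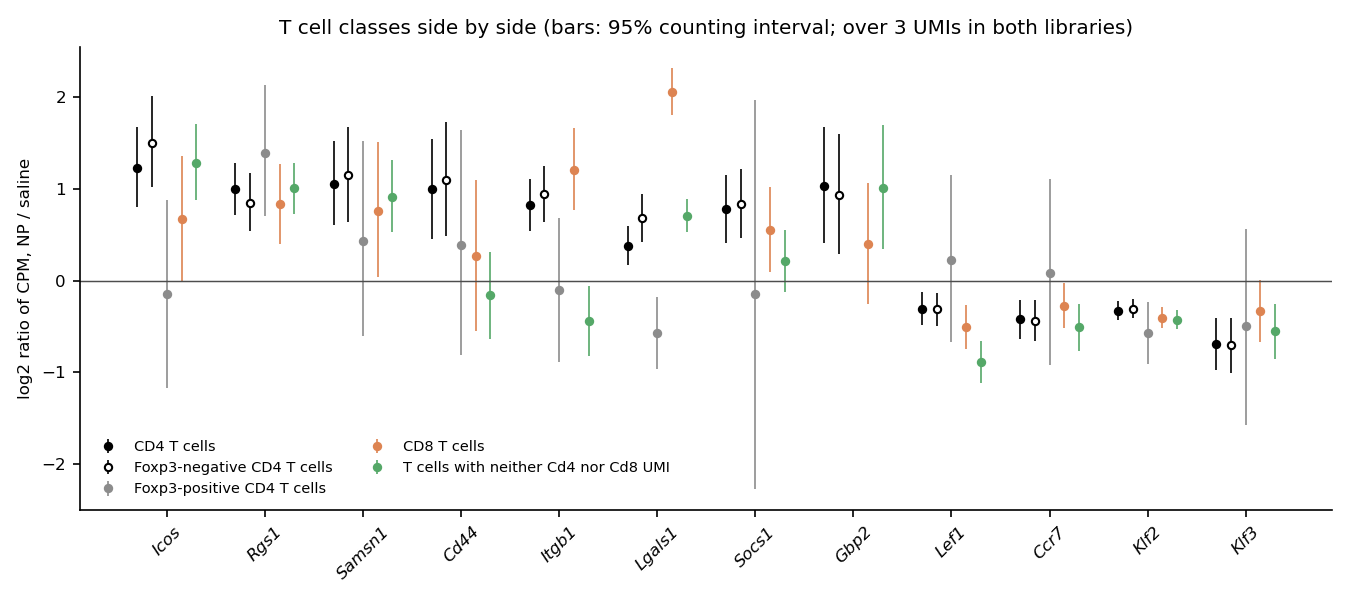
Log2 ratio of CPM, NP over saline, of 12 genes in all CD4 T cells, in those without and with a Foxp3 UMI, in CD8 T cells and in T cells with neither a Cd4 nor a Cd8 UMI; bars are 95% counting intervals, and a gene with 3 or fewer UMIs in a library is left out. Lef1, Ccr7, Klf2 and Klf3 were below 0 in all CD4, in CD8 and in the remaining T cells, while Icos was above 0 in each of these and at −0.15 in the few Foxp3-positive cells.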

How the data were processed

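Lung cell suspensions from tumor-bearing mice were run on the 10x platform, 1 saline and 1 NP library. The authors deposited raw UMI counts per gene and barcode, with all barcodes and no cell filter; per the labels they used bcl2fastq, Cell Ranger 6.0 and mm10, whereas the header of the deposited matrices names Cell Ranger 4. The libraries held 91168129 (saline) and 90081747 (NP) UMIs, and 8662 and 8333 cells were kept. Gene positions were read from a GENCODE GRCm38 annotation, which held 99.6% of 32285 gene identifiers.

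The choice of CD4 T cells and all gene lists was made with earlier results of these data known. Counts were summed per library, scaled to CPM, and compared as log2 ratios with exact conditional binomial intervals. Intervals, floors (3 counts) and ratios of shares (log method) cover counting error only, since each condition had 1 library and no test was possible. Lists are described by medians over genes with at least 20 UMIs, leaving out the genes of the gate. Besides list members, the text names the 10 highest and 10 lowest ratios among genes with at least 100 UMIs, the 10 genes with the highest level against other cells, and the most abundant gene of each list of another cell type. Some listed genes are not reported here. Cells were thinned to 1000 UMIs with fixed seeds. For the share with more effector than naive UMIs the mean of 10 thinnings replaced the first one after its values were seen.

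Doublets were kept: Scrublet with a threshold per library called 6 saline (0.0693%) and 336 NP (4.03%) cells and had not worked for saline, and with 1 shared threshold it called 266 and 336, 4 and 3 of them CD4 T cells. From S100a8 and S100a9 in near-empty barcodes, free RNA was put at 1.56% (saline) and 0.505% (NP) of CD4 T cell UMIs for the subtraction; as the gate itself limits these genes, and removed 11 saline and 2 NP T cells by them, this is no independent ceiling. Limits on genes, mitochondrial share, S100 share, Cd3, Cd4 and other lineages, doublets, scaling, thinning and the floor were varied. The steps were tested on simulated data, in which gene counts were independent draws. Genes whose UMIs sat mostly in a single cell, such as Gzma and Ccl5 in saline, were not simulated. For such genes the counting intervals are too narrow. Tools were Python 3.11.15, numpy 2.4.6, pandas 2.3.3, scipy 1.17.1, matplotlib 3.10.9, scanpy 1.11.5 and anndata 0.12.19.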

Additional observations from a re-analysis of the deposited data

Results flagged for a closer look

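The cytotoxic list pointed opposite ways in CD4 and CD8 T cells of the same libraries. Its summed level had a log2 ratio, NP over saline, of −0.24 (−0.43 to −0.04) in CD4 T cells and 0.83 (0.75 to 0.91) in CD8 T cells, and with 1 library per condition the difference was not tested. In CD8 T cells Gzma had 10 UMIs in 2 saline cells and 466 UMIs in 9 NP cells, and in CD4 T cells 66 and 1. Of the 66, 64 were in 1 cell, and the CD4 T cells outside the regulatory gate had a cytotoxic sum at 1.43 (1.14 to 1.72), or 0.54 (0.20 to 0.88) without Ccl5, of which 9 NP cells held 167 UMIs. Without Ccl5 the sum over all CD4 T cells was at −0.50 (−0.76 to −0.25). The median of the list in CD4 T cells, −0.33, was 0.17 with the mixed cells left out and 0.64, over 3 genes, with at least 2 Cd4 UMIs. The NK list went the same opposite ways, at 1.20 in CD8 and −1.42 in CD4 T cells, and its part was not tested. It shares Gzma, Prf1, Klrd1 and Nkg7 with the cytotoxic list, so its direction is not a separate observation. In saline CD4 T cells Fcer1g and Tyrobp, which are abundant in myeloid cells, held 120 and 116 of its 439 UMIs.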

How the results depend on the processing

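No paired analysis was possible because each condition had 1 library, and for the same reason no replicate could be left out. The effector, regulatory and interferon-γ medians were above 0 in all 23 alternatives (ranges 0.0903 to 0.546, 0.175 to 0.846 and 0.159 to 0.407), and the naive median was below 0 in 21 of 23 (−0.163 to 0.0967). Not every alternative was a test. The lowest CD3 count was 5 UMIs in saline and 4 in NP members, and no cell with a single CD3 UMI was left out. The looser and stricter Cd3 limits therefore took the same CD4 T cells. The looser and stricter minimums of detected genes left the effector share at 18.1% and 29.1%, as in the main setting. Values from these alternatives are included in the counts below. Of 442 alternative values of shares and lists, 12 moved beyond the tolerance and 1 turned. For list medians the tolerance was the order-statistic interval of the median, taken up after the values were seen; with the narrower margin of the summed ratio, 63 of 391 would have moved and 18 turned. Of 1543 values of 74 named genes, 95 moved and 15 turned. The causes were not tested.

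With a mitochondrial limit of 5% the survival median was 0.15. With S100a8 and S100a9 under 1% the effector median was 0.36 and Anxa1 0.28. Without that limit the interferon-α median was 0.0265, Lgals3 −0.59 and Isg15 0.10. With at least 2 Cd4 UMIs the naive, regulatory, cytotoxic and interferon-γ medians were 0.0967, 0.18, 0.64 and 0.20, and Socs2 was −0.80. With no UMI of other lineage genes the log2 ratio of the CD4 share was −0.57 (−1.07 to −0.08), an interval below 0. That limit left 82 saline and 53 NP CD4 T cells but was not applied to the denominator. Transcripts of other cell types differed between the libraries, and their part in this ratio was not tested. Under that setting the type 1, cytokine receptor and interferon-γ medians were −0.38, −0.27 and 0.16. Tnfrsf4, Anxa1, Ccr10 and Ccl4 were −0.31, 0.11, −0.38 and 0.94. With mixed cells left out, a step chosen after seeing the data, the effector median was 0.55, Hba-a1 and Hba-a2 0.83, Fcer1g 0.86, Anxa1 0.62 and Ccl4 1.51. As a ratio of summed CPM the interferon-γ list was at 0.17. With free RNA subtracted Anxa1 was 0.0225, and without the cell with the most UMIs Hba-a1 was 0.63.

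The share with more effector than naive UMIs, added after seeing the data, had a log2 ratio of 1.23 in the first thinning, 0.23 with a mitochondrial limit of 5% and 0.10 with at least 2 Cd4 UMIs. At 303 cells, Tbx21 and the cytokine genes Il4, Il5, Il13, Il17a, Il17f and Il22 had too few UMIs to compare.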
